A study of Mus musculus with 89 samples.

Results

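Intraepithelial lymphocytes with messenger RNA of the alpha chain of the T cell receptor or of Cd8b1 were examined one well at a time in the mouse jejunum. Wells were chosen by counts of unique molecular identifiers (UMIs, 1 per captured mRNA molecule). A lymphocyte was a kept well with at least 3 UMIs summed over Cd3g, Cd7, Ccl5, Gzma, Gzmb, Cd8a, Klrd1 and Tcrg-C1, and an alpha beta lymphocyte was a lymphocyte without a Trdc UMI and with at least 1 UMI of Cd8b1 or Trac. This gave 391 alpha beta lymphocytes among 1681 lymphocytes and 5199 kept wells. They were compared with 492 gamma delta lymphocytes, which held at least 1 Trdc UMI. The remaining 795 lymphocytes of the same mice, with none of the 3 genes, are called unassigned lymphocytes.

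The study sequenced single cells and cell clumps of the small intestine, and the single cells are analysed here. Cells came from the jejunum of 4 male C57BL/6 mice on regular chow, 3 months old by the labels except for 3 plates of mouse 2 labelled 4 months, and no mouse was treated or genetically modified. The tissue was dissociated with EDTA, cells were sorted singly into 384-well plates, and 3' ends of mRNA were sequenced by MARS-seq, so that a level does not scale with gene length. The study's sort was aimed at epithelial cells, CD45-negative and Epcam-positive, and the CD45 gate was dropped where tuft cells were enriched by Epcam and CD24.

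Intraepithelial lymphocytes are T cells that live between the epithelial cells of the gut. A T cell carries either an alpha beta or a gamma delta receptor, with the constant regions encoded by Trac and Trbc1 or Trbc2, or by Trdc and the Tcrg-C genes, and either receptor signals through the CD3 chains. The coreceptor CD8 is a dimer of 2 CD8 alpha chains (Cd8a) or of an alpha and a beta chain (Cd8b1): the alpha beta form is the coreceptor of conventional T cells that recognise MHC class I, and the alpha alpha form is typical of unconventional intraepithelial lymphocytes of either receptor type. In these cells the granule proteases granzyme A and B (Gzma and Gzmb) and the chemokine CCL5 are abundant.

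The alpha beta lymphocytes came from mouse 2 (156 wells), mouse 3 (175) and mouse 4 (60), and mouse 1 gave none. They were found on plates of 3 gates. They made up 14.4% of the 1080 kept wells on CD24 plates of mouse 2 (95% exact binomial interval 12.4 to 16.7%), 13.9% of 1260 wells on onlyEpcam plates of mouse 3 (12.0 to 15.9%) and 7.48% of 802 wells on onlyEpcam plates of mouse 4 (5.76 to 9.53%). Every other gate gave 0, for which the limit is 3 wells of the total. The CD45Epcam plates of mouse 3 had 276 wells, which allows a share of up to 1.09%, and plates labelled CD54Epcam of mouse 4 had 258 (up to 1.16%). The Epcam plates of mouse 2 had 573 wells (up to 0.524%), and those of mouse 2 with no gate named 140 (up to 2.14%). Of 810 wells of mouse 1, 757 had no gate named (up to 0.396%). Its gates with a CD24 label had few wells and wide limits, 34 labelled EpcamLow_Cd24high (up to 8.82%) and 19 labelled Epcam_Cd24low (up to 15.8%). Shares of a gate are therefore shares of sorted wells, not of the tissue. All 19 plates of the 3 gates with such cells held some, between 1.82% and 25.1% of their kept wells. As a share of the lymphocytes of those gates, they were 21.5%, 25.7% and 25.1% in mice 2, 3 and 4.

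**Figure D1:**
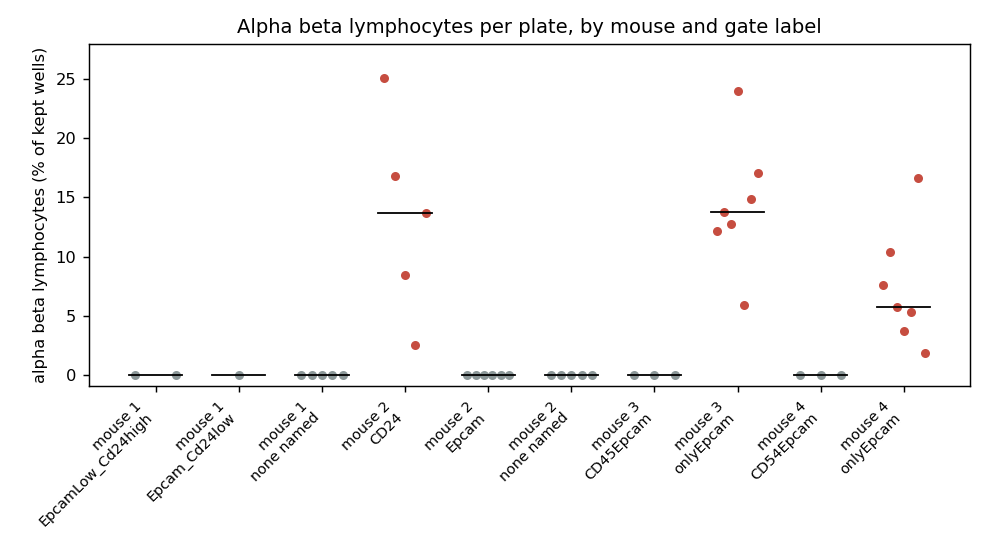
Alpha beta lymphocytes in percent of the kept wells of each plate (vertical axis), by mouse and gate (horizontal axis); each point is 1 plate and bars are medians. Points lie above 0 in the CD24 gate of mouse 2 and the onlyEpcam gates of mice 3 and 4, where all 19 plates had such wells, and at 0 in the other gates.

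Depth was modest and similar between mice. An alpha beta lymphocyte held a median of 1048 UMIs (267 to 5858), and the medians were 1222, 905 and 1043 in mice 2, 3 and 4, against 1096, 833 and 864.5 in gamma delta lymphocytes. The sums per mouse were 213450, 198159 and 72761 UMIs against 333426, 154439 and 65921. The same 384 barcodes served every plate, and the 391 wells used 246 of them, so a barcode named a well only together with its plate. Epithelial marker UMIs had a median share of 0.235% in these wells, compared with 2.42% in kept wells that were no lymphocytes. All intervals and limits cover counting error only.

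The rule rested on few molecules. Of the 391 wells, 314 had Trac without Cd8b1 (Trac-only wells), 45 had Cd8b1 alone and 32 had both. Exactly 1 UMI of Trac or Cd8b1 decided 213 wells (54.5%), and the highest number was 8. The lymphocyte sum had a median of 43 UMIs and ran from 3 to 310, with 11 wells at exactly 3, and 8 wells with Cd8b1 or Trac lay just outside at 2. On the other side, 1 Trdc UMI decided 215 of the 492 gamma delta lymphocytes, and 129 of the 492 also had a UMI of Cd8b1 or Trac. At this depth, Trac without Trdc in a well does not fix its receptor type, and the groups are groups of wells by detected UMIs.

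The alpha beta and CD8 label was checked against its markers. Trac was at 1119.7, 1287 and 1251 counts per 10⁶ UMIs (CPM) in mice 2, 3 and 4, and at 381, 324 and 228 CPM in gamma delta lymphocytes. Cd8b1, at 267, 252 and 234 CPM against 9, 6.48 and 0 CPM, was found in 77 of the 391 wells (19.7%). All genes of this paragraph but Cd4 belonged to the rule, so these levels and shares are a description and no independent check of the label. Cd8a was found in 264 wells (67.5%), compared with 1.29% of wells that were no lymphocytes, and its level did not set the alpha beta lymphocytes apart, since it was 1518, 1135 and 1498 CPM against 1599, 1560.5 and 1456 CPM in gamma delta lymphocytes. Cd4, the coreceptor of helper T cells, was found in 15 wells (3.84%), 12 of them Trac-only. At least 3 of Cd8b1, Cd8a, Ccl5 and Gzmb were detected in 236 wells (60.4%). Cd8b1, which marks the CD8 alpha beta form, was thus not detected in most wells.

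A few wells went against the label. After the values were seen, wells were counted that held at least 2 UMIs of Siglech, Ly6d and Mpeg1, genes known from plasmacytoid dendritic cells. Among alpha beta lymphocytes there were 9 such wells, 8 in mouse 2 and 1 in mouse 3, and 8 of them had entered through Cd8b1. A CD3 gene was found in 2 of the 9 (22.2%) and in 85.9% of the other 382, a Trbc gene in 11.1% against 74.9%, and a gene of MHC class II in 9 of 9 against 19.4%. Their lymphocyte sum had a median of 6 UMIs, compared with 44. Results on Cd8b1 wells are given with and without them. Gamma delta lymphocytes of mouse 2 also reached this limit, in wells of 1510 and 3143 UMIs with 2 such UMIs each. The fits without Siglech wells left these out, while gamma delta levels and the ratios to them kept them.

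The genes of highest level in alpha beta lymphocytes relative to wells that were no lymphocytes were led by Gzma, Ccl5 and Gzmb. The 15 genes of highest ratio were ranked on the wells that the rule chose, and many of them are rule genes, so they carry no test. Gzma stood at 18301 ± 3719 CPM (mean ± SD, n = 3 mice), 305-fold above wells that were no lymphocytes, Ccl5 at 13662 ± 1844 CPM (237-fold) and Gzmb at 3756 ± 961 CPM (183-fold), after 10 CPM was added to both levels. The others were Cd7, Cd8a, Cd3g, Trac, Tcrg-C2, Nkg7, Trbc2, Tcrg-C1, Cd3e, Trbc1, Klrd1 and Tcrg-C4, between 152-fold and 33.3-fold. From well to well Ccl5 was the most even, with a median of 14 UMIs, quartiles of 7 and 22 and 9 wells at 0. Gzma was wider, with a median of 17 UMIs, a highest well of 194 and 33 wells at 0. Gzmb had a median of 3 UMIs and 98 wells at 0.

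The upstream sequences of both granzyme genes are shown because these genes led the ranking with Ccl5. They are the 250 bases before the RefSeq start on GRCm38.p6, 5′ to 3′ on the gene's strand, at chr13:113100982-113101231 for Gzma and chr14:56262335-56262584 for Gzmb, both on the minus strand, and capitals mark TGTGGT or its reverse complement, the core sequence bound by Runx factors.
Gzma: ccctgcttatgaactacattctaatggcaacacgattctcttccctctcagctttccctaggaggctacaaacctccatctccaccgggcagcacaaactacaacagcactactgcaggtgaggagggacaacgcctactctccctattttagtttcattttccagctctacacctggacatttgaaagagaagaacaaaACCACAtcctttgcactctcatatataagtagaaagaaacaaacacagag
Gzmb: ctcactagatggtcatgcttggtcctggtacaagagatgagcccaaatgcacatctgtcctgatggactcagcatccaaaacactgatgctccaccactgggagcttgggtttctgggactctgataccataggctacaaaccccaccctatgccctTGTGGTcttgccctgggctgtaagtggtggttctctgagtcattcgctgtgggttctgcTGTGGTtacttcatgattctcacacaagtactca
The core was found once in the Gzma window, 50 bases before the start, and at 93 and 34 bases before the start of Gzmb. Of the 15 leading genes, 6 had a window in the table (Gzma, Gzmb, Nkg7, Cd8a, Cd3g and Cd3e), and 3 of these held the core on either strand, the other one being Nkg7 at 83 bases. Of all 32851 windows of this length, 4614 (14.0%) held it. A match describes these letters and is neither a binding site nor a cause of a level.

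Sums per mouse were then compared between alpha beta and gamma delta lymphocytes over 2312 genes with enough counts, leaving out the 11 genes of the rule. By edgeR's quasi-likelihood test with Benjamini-Hochberg adjustment, 0 genes (0%) passed an adjusted p of 0.05, with 79 at an unadjusted p under 0.05, and DESeq2 also called 0. Both sums of a mouse came from plates of the same mouse number, and with the mouse as a replicate block 14 genes passed, 9 higher (0.389% of those tested) and 5 lower (0.216%). DESeq2 with the same block called 0. Without mouse 3 the blocked test called 4 genes (Trbc2, Tcrg-C3, Gip and Gm42418), and without mouse 4 it called 24. The calls below are from this blocked fit. The median log2 difference over all genes was 0.01, so the scale was centred. In all 3 mice, 13.9% of genes were higher and 14.6% lower. The 14 genes are described below as receptor genes, other lower genes, histone genes, and the remaining Gip, Gm43291 and Gm42418. They are named because they passed in this alternative.

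**Figure D2:**
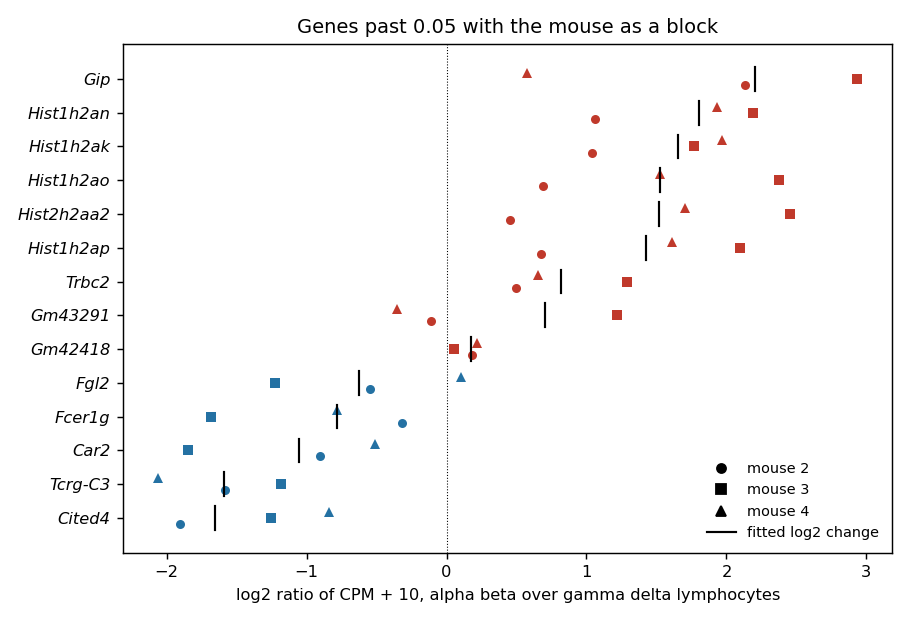
Log2 ratio of alpha beta to gamma delta lymphocytes (horizontal axis, from CPM with 10 CPM added) for each of the 14 genes that passed with the mouse as a block (vertical axis); points are the 3 mice and the black bar is the fitted change. The 3 points lie on 1 side for most genes, while those of Gip and Gm43291 are spread widely.

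Of the receptor genes outside the rule, Trbc2 was higher and Tcrg-C3 lower in alpha beta lymphocytes. Trbc2, a constant region of the beta chain (chromosome 6, 41546730 to 41548352, GRCm38), stood at 1204, 1267 and 1319 CPM in mice 2, 3 and 4 against 849, 512 and 834 CPM. The lowest alpha beta value lay above the highest gamma delta value. The log2 difference was 0.82 (SE 0.12), with an adjusted p of 0.000198 by edgeR's blocked test and 0.472 without the block; over 29 alternatives the adjusted p ran from 1.04e-11 to 1, and Trbc2 was higher in every one. A UMI was found in 66.5% against 45.3% of wells, and in 37.7% against 24.0% after each well was thinned to 400 UMIs. Trbc2 was thus far from absent in wells with Trdc. The other beta constant region, Trbc1, stood at 534, 575 and 756 CPM against 507, 330.2 and 667 CPM, higher in each mouse with overlapping groups, and did not pass. Reads of Trbc1 and Trbc2 can be hard to tell apart, as can those of the Tcrg-C genes.

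Tcrg-C3, a constant region gene of the gamma chain (chromosome 13, 19260884 to 19263528), stood at 93.7, 85.8 and 68.7 CPM against 299.9, 207 and 319 CPM. The groups did not overlap, and the log2 difference was −1.59 (SE 0.26; edgeR's blocked adjusted p 0.000506, without the block 0.0591, and 1.83e-06 to 1 over 29 alternatives, lower in all). Among these alternatives is the fit that took only alpha beta wells without Tcrg-C1, a choice by a related gene. Gamma chain mRNA was nevertheless common: 288 alpha beta lymphocytes (73.7%) had a UMI of a Tcrg-C gene, Tcrg-C1 of the lymphocyte rule included, and 287 (73.4%) had Trbc1 or Trbc2. Tcrg-C2 was at 843, 888 and 1182 CPM against 1167, 997 and 1183 CPM and Tcrg-C4 at 473, 318 and 454 CPM against 471, 583 and 683 CPM. Neither passed. Tcrg-C1, a gene of the lymphocyte rule, was at 895, 621 and 715 CPM against 1922, 1781 and 1896 CPM. The fixed list of receptor, CD3 and adaptor chains held Cd3d, Cd3e, Cd247, Trbc1, Trbc2, Tcrg-C2, Tcrg-C4, Fcer1g and Tyrobp, but not Tcrg-C3. Of these 9 genes, 2 were higher and 3 lower in all mice, the median log2 difference was −0.19, and the blocked test called 1 higher (Trbc2) and 1 lower (Fcer1g).

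**Figure D3:**
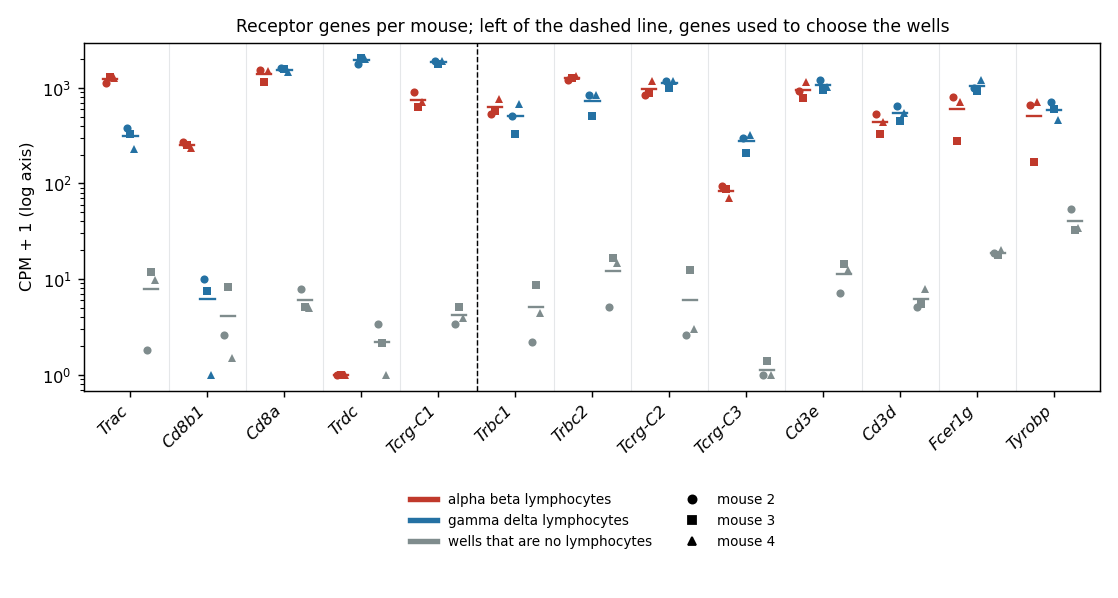
Levels of T cell receptor and coreceptor genes in CPM + 1 on a log axis, in alpha beta lymphocytes, gamma delta lymphocytes and wells that were no lymphocytes; points are mice 2, 3 and 4 and bars are means. Genes left of the dashed line were used to choose the wells. Trac and Cd8b1 are high in alpha beta lymphocytes and Trdc absent there by the rule, whereas Trbc2 (1204 to 1319 against 512 to 849 CPM) and Tcrg-C3 (68.7 to 93.7 against 207 to 319 CPM) were not used by it.

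Fcer1g, a signalling adaptor that can pair with the CD3 zeta chain in intraepithelial lymphocytes and serves Fc and NK receptors (chromosome 1, 171229572 to 171234365), was lower. It stood at 806, 278 and 701 CPM against 1005, 913 and 1214 CPM, without overlap, a log2 difference of −0.78 (SE 0.15; adjusted p 0.00656 by edgeR's blocked test, 0.999 without the block, and 1.1e-09 to 1 over 29 alternatives, lower in all). Without mouse 3 the blocked log2 difference was −0.39 and did not pass. A UMI was found in 33.0% against 60.0% of wells, in 18.2% against 35.3% after thinning, and in 3.50% of wells that were no lymphocytes, which were deeper (median 2255 UMIs). Mouse 3 had the lowest value among alpha beta lymphocytes.

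Among the other lower genes, Car2, a carbonic anhydrase, was at 216, 75.7 and 316 CPM against 411, 298 and 455 CPM (log2 −1.06, with overlap), and Cited4, a transcriptional coregulator, at 32.8, 40.4 and 55.0 CPM against 150, 110.1 and 106 CPM (log2 −1.65). Fgl2, an immunoregulatory fibrinogen-like protein, was at 492, 283 and 605 CPM against 723, 673 and 561 CPM (log2 −0.62), lower in mice 2 and 3 but not in mouse 4. Their adjusted p values by edgeR's blocked test were 0.00656, 0.0256 and 0.0472. Each was lower in every alternative that tested it, and it passed in 9 of 29, 6 of 23 and 7 of 29 of them, the blocked test included. Without mouse 3 the blocked log2 differences of Car2, Cited4 and Fgl2 were −0.78, −1.81 and −0.38, and none of them passed.

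In wells with Cd8b1 the adaptors Fcer1g and Tyrobp were at 10.4% and 29.1% of the gamma delta level, and almost all of their UMIs were in the Siglech wells. Without the Siglech wells there were 69 (21, 37 and 11 in mice 2, 3 and 4), with 25665, 48347 and 13307 UMIs. In these, Fcer1g was at 39.0, 0 and 0 CPM, compared with 948, 367 and 858 CPM in Trac-only wells: 1 of 69 wells (1.45%) had a UMI, compared with 39.5%. The interval of that share, 0.0367 to 7.81%, includes the 3.50% of wells that were no lymphocytes, which were deeper (median 2255 against 1027 UMIs). Its level was 1.14% of the gamma delta level (exact 95% interval 0.0288 to 6.38%), from 1 UMI among 87319. With the Siglech wells included, 11 UMIs gave 10.4% (5.16 to 18.8%).

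Tyrobp, the adaptor DAP12 of activating NK receptors, was nearly absent too, at 39.0, 0 and 0 CPM in wells with Cd8b1, 701, 220.3 and 875 CPM in Trac-only wells and 717, 596 and 455 CPM in gamma delta lymphocytes. Its level was 1.76% of that of gamma delta lymphocytes (0.0444 to 9.85%), and 29.1% (17.6 to 45.7%) with the Siglech wells. Ikzf2, which encodes the transcription factor Helios, was at 39.0, 62.1 and 0 CPM against 265, 267 and 437 CPM in Trac-only wells and 267, 291 and 364 CPM in gamma delta lymphocytes, 16.1% of the gamma delta level (4.32 to 41.9%), and 13.3% (3.58 to 34.8%) with the Siglech wells. For each of the 3 genes, all values of these 69 wells lay below all values of both other groups, while those of Trac-only wells and gamma delta lymphocytes overlapped. The 0 of mouse 4 rests on 13307 UMIs, where the limit of 3 UMIs is 225 CPM. For Tyrobp that limit lies above the 220.3 CPM of the Trac-only wells of mouse 3. The share of all genes so separated was not counted. With the Siglech wells, Tyrobp in mouse 2 was at 458 CPM, above mouse 3 of the Trac-only wells and mouse 4 of the gamma delta lymphocytes.

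**Figure D4:**
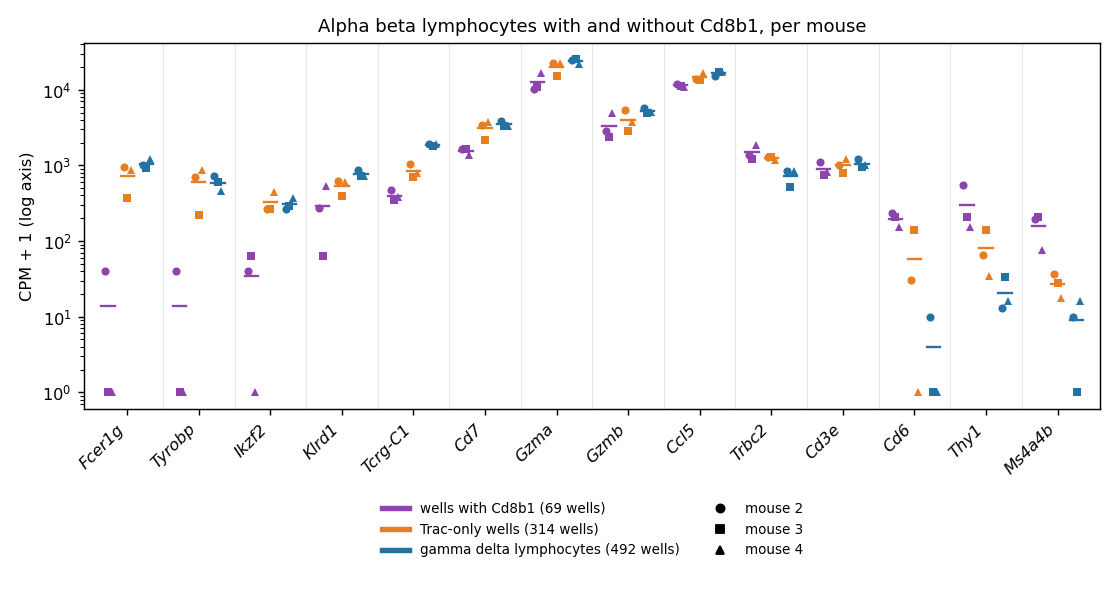
Levels in CPM + 1 on a log axis in wells with Cd8b1 (the 8 Siglech wells among them left out), Trac-only wells and gamma delta lymphocytes; points are mice 2, 3 and 4 and bars are means. Fcer1g was at 0 to 39.0 CPM in wells with Cd8b1 and at 913 to 1214 CPM in gamma delta lymphocytes, and Trac-only wells lay at 367 to 948 CPM.

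The alternative in which Cd8b1 alone defined the alpha beta lymphocytes tested 649 genes against gamma delta lymphocytes, and edgeR called 2, both lower (0.308%): Fcer1g (log2 −3.34, SE 0.56) and Ikzf2 (log2 −2.99, SE 0.51), each at an adjusted p of 0.0321. With the block it called 14, 12 lower (1.85%) and 2 higher (0.308%, Ccl4 and Cd74, the MHC class II invariant chain). Leaving out the Siglech wells, a choice made after the values were seen, it called 3 of 657 genes, Fcer1g, Tyrobp and Ikzf2, all lower (0.457%), and with the block 7, 5 lower (0.761%) and 2 higher (0.304%, Trbc2 and Rpl18). Ccl4 and Cd74 were no longer among them. Fcer1g and Ikzf2 passed in all 4 of these fits, and Tyrobp in both without the Siglech wells. Fitted folds of genes at or near 0 depend on the prior count, and the ratios above give their size. Wells with Cd8b1 were not tested against Trac-only wells, since the rule itself separates them.

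Other genes also differed in level between the 69 wells with Cd8b1 and the rest, as a description of genes picked after their values were seen and, unless stated, without the Siglech wells. Cd6 and Cd5, receptors of mature T cells that tune receptor signalling, stood at 234, 207 and 150.3 CPM and at 117, 82.7 and 150.3 CPM in wells with Cd8b1, against 9, 0 and 0 CPM and 0, 13.0 and 0 CPM in gamma delta lymphocytes. Thy1, the T cell surface protein CD90, was found in 26.1% of wells with Cd8b1, 7.96% of Trac-only wells and 1.83% of gamma delta lymphocytes. Ms4a4b, a membrane protein of T cells, was at 195, 207 and 75.1 CPM against 35.3, 26.7 and 16.8 CPM in Trac-only wells. Klrd1, the NK receptor chain CD94, was found in 13.0%, 36.3% and 49.0% of the wells of these groups, and Cd7 also went the other way, at 1636, 1634 and 1353 CPM against 3428, 2189 and 3784 CPM. Trbc2 was found at nearly the same share, in 66.7% of wells with Cd8b1 and 68.2% of Trac-only wells. Tcrg-C1 was at 468, 352 and 376 CPM against 1048, 708 and 791 CPM. Trac-only wells lay between wells with Cd8b1 and gamma delta lymphocytes in all 3 mice for Klrd1 and Tcrg-C1 and in mice 2 and 3 for Cd7, all of them genes of the lymphocyte rule. The Siglech wells with Cd8b1 all came from mouse 2, and with them the levels of that mouse were lower, at 137 CPM for Cd6, 91.6 CPM for Cd5, 321 CPM for Thy1, 115 CPM for Ms4a4b, 1099.7 CPM for Cd7 and 298 CPM for Tcrg-C1. The shares of wells were then 23.4% for Thy1, 14.3% for Klrd1 and 59.7% for Trbc2.

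The histone genes that passed, Hist1h2an, Hist1h2ak, Hist1h2ap, Hist1h2ao and Hist2h2aa2, encode H2A, are made during DNA replication and are near-identical in sequence, so reads may be split among them. Hist1h2an was at 136, 273 and 549.7 CPM against 60.0, 51.8 and 137 CPM (log2 1.80, SE 0.28; adjusted p 0.000346 by edgeR's blocked test and 3.4e-08 to 1 over 21 alternatives, higher in all). The groups overlapped, since mouse 2 of the alpha beta lymphocytes lay just under mouse 4 of the gamma delta lymphocytes. The signal sat in few wells: 10 of 391 alpha beta lymphocytes with at least 10 histone UMIs (2.56%, interval 1.23 to 4.65%) held 682 of 827 histone UMIs (82.5%). The same limit found 6 of 492 gamma delta lymphocytes, 5, 0 and 1 in mice 2, 3 and 4 (1.22%, interval 0.449 to 2.64%), which held 186 of 388 histone UMIs (47.9%). These intervals pool wells over the mice, and their overlap is no test of a difference between the groups.

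These 10 wells, 2, 4 and 4 in mice 2, 3 and 4, also carried genes of cell division. Their median was 15 UMIs of the cell division list and 5 of them had Mki67, while the median of the other 381 was 0, with a UMI of the list in 32.5% of them. All 6 histone wells of gamma delta lymphocytes had such UMIs as well, with a median of 9 and Mki67 in 3. The 10 alpha beta wells were deeper than the other 381, with a median of 2432.5 UMIs against 1032. For gamma delta lymphocytes the medians were 1818 in the 6 histone wells and 987.5 in the rest. Without the histone wells of both groups, an alternative added after the values were seen, the blocked fit again called 14 genes, 8 higher and 6 lower, of which 9 were shared. The 5 histone genes fell below the filter there, since the wells were removed by their histone UMIs, and were not tested. The number of dividing wells was too small to compare per mouse.

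**Figure D5:**
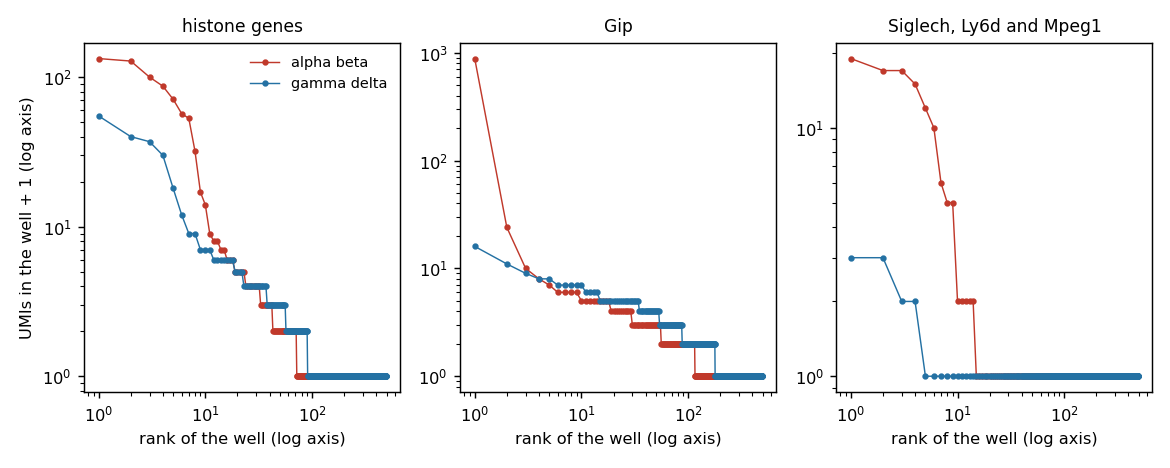
UMIs in each well plus 1 (vertical axis, log) against the rank of the well (horizontal axis, log) for all histone genes, for Gip and for the sum of Siglech, Ly6d and Mpeg1, 1 point per well of alpha beta and gamma delta lymphocytes. The curves fall steeply: 10 alpha beta lymphocytes held at least 10 histone UMIs, 1 held 882 Gip UMIs, and 9 held at least 2 UMIs of the last sum.

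Of the remaining called genes, Gip and Gm43291 turned on single wells. Gip, a hormone of enteroendocrine K cells, was at 5167, 116 and 27.5 CPM against 1173, 6.48 and 15.2 CPM (log2 2.20, adjusted p 4.23e-13 by edgeR's blocked test, from 1.57e-60 to 1 over 18 alternatives). In mouse 2, 1 well held 882 of 1103 Gip UMIs, and without it the level was 1051 CPM, below the 1173 CPM of gamma delta lymphocytes. In mouse 3 all 23 Gip UMIs were in 1 well. Gm43291, a predicted gene, was at 449.8, 6081 and 412 CPM against 486, 2603 and 531 CPM, and 1 well of mouse 3 held 638 of its 1205 UMIs and 634 of 1168 UMIs of Igha, the constant region of immunoglobulin A. Whether reads were split between these genes is not known. Without that well the Gm43291 level in mouse 3 was 2923 CPM. The last was Gm42418, a noncoding gene that overlaps a ribosomal RNA repeat, with a difference of 0.18 on the log2 scale that did not turn on such wells. Leaving out wells with at least 20 UMIs of Gip, Chga, Chgb and Igha (5 alpha beta and 2 gamma delta lymphocytes), an alternative added after the values were seen, left 10 calls, 6 higher and 4 lower, all shared with the 14. Gip then fell below the filter and was not tested, and Gm43291 was at 0.11 on the log2 scale. Fgl2 (−0.61, adjusted p 0.0527 by edgeR's blocked test) and Gm42418 (0.19) no longer passed but hardly moved.

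The other gene lists fixed for lymphocytes held no gene called by the blocked test on all wells. Of their genes named below, Cd244 passed in 1 of 24 alternatives, Xcl1 in 1 of 21, and Ctla4 and Ccl4 each in 1 of 29. Of 9 cytotoxic granule genes tested, 0 were called, 0 were higher and 4 lower in all 3 mice, with a median log2 difference of −0.23. Nkg7, a granule membrane protein, was at 899.5, 843 and 1264 CPM against 1158, 1178 and 1138 CPM, and Ctsw, the protease cathepsin W, at 403, 343 and 344 CPM against 507, 505 and 425 CPM. Ctsw did not overlap between groups, but its log2 difference of −0.38 (SE 0.18) did not pass. Gzma and Gzmb, rule genes, were lower in each mouse, Gzmb at 4601, 2709.9 and 3958 CPM against 5743, 4863 and 5143 CPM. Perforin (Prf1) was below the filter, at 18.7, 20.2 and 27.5 CPM.

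For the 3 NK receptor genes tested, the median log2 difference was −0.29. Cd244, a receptor of the SLAM family, was at 136, 101 and 124 CPM against 138, 291 and 243 CPM, and Cd160, a receptor for HVEM and MHC class I molecules, at 187, 283 and 179 CPM against 179.9, 168 and 106 CPM. They went in opposite directions and neither passed. Ncr1, which marks NK cells, and Eomes were at 0 UMIs in the 391 alpha beta lymphocytes, which allows up to 0.767% of wells with a UMI. Both belong to a fixed list of NK and innate lymphoid markers, whose gene Klrb1c is not described here. Tyrobp of the same list went the other way, with a UMI in 8 of the 9 Siglech wells and 106 of the other 382.

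Genes of residence in the epithelium were detected in both groups. Of 13 homing and residency genes tested 0 were called, 2 were higher and 3 lower in all 3 mice, and the median was 0.04. Itgae, the integrin CD103 that binds E-cadherin, was at 623, 560.2 and 783 CPM against 801, 725 and 895 CPM (log2 −0.29, SE 0.17). Ccr9, the receptor for the gut chemokine CCL25, was at 229.6, 172 and 68.7 CPM against 168, 168 and 91.0 CPM, and Itgb7, the beta 7 integrin, at 211, 182 and 109.9 CPM against 177, 162 and 167 CPM. Both overlapped. Rgs1, a regulator of chemokine receptor signalling, was lower in all 3 mice (log2 −0.27, SE 0.18) and Gpr55, a lipid receptor, in 2 (log2 −0.34, SE 0.24).

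Of 6 cytokine genes tested, Ccl4, a chemokine of activated T cells, was at 187, 404 and 289 CPM against 135, 233 and 212 CPM (log2 0.63 with the block, SE 0.21). Its levels overlapped and it did not pass. In mouse 3, 1 well held 42 of 80 Ccl4 UMIs, and in mouse 4, 1 well held 15 of 21. Without these wells the levels were 196 and 83.5 CPM, below those of gamma delta lymphocytes. Xcl1, a chemokine that attracts dendritic cells, was at 79.6, 469 and 27.5 CPM against 162, 19.4 and 60.7 CPM, and 1 well of mouse 3 held 72 of 93 UMIs there, so its direction turned on that mouse: without mouse 3 the log2 difference was −1.02. Among 3 inhibitory receptor genes tested, Ctla4 was at 984, 979 and 1113 CPM against 777, 719 and 971 CPM, without overlap between groups (log2 0.37, SE 0.11, blocked adjusted p 0.148 by edgeR). Without histone wells it passed with the block (log2 0.42, adjusted p 0.0333 by edgeR). Ctla4 was also found in 28.8% of wells that were no lymphocytes, compared with 62.9% of alpha beta lymphocytes.

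Of 12 transcription factor genes tested, 0 were called, 3 were higher and 1 lower in all 3 mice, with a median of −0.01. Id2, an inhibitor of E proteins, was at 365, 595 and 426 CPM against 483, 492 and 455 CPM, and Ets1 at 473, 323 and 467 CPM against 441, 434 and 394 CPM. Both overlapped widely. None was called among 15 receptor signalling genes (median 0.02), 8 coreceptor and costimulation genes (−0.17), 7 immediate early genes (−0.04), 3 interferon response genes (−0.09), 11 MHC class I genes (−0.06) or 4 cell division genes (0.37), counted without the 5 histone genes.

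Markers of other cell types were detected, and their part in the differences was not tested. The summed level of the enterocyte list was 501, 2049 and 3656 CPM in alpha beta lymphocytes, 573, 1250 and 3428 CPM in gamma delta lymphocytes and 15934 to 29859 CPM in wells that were no lymphocytes. The B and plasma cell list was at 543, 7423 and 646 CPM against 606, 3697 and 834 CPM, with mouse 3 raised in both groups (1090 to 27714 CPM in wells that were no lymphocytes). In mouse 3, Igha was at 5894 CPM in alpha beta lymphocytes and at 2753 CPM without 1 well. It was at 2953 CPM in gamma delta lymphocytes, where 1 well held 187 Igha UMIs. The secretory list was at 3537, 399 and 109.9 CPM against 3107, 421 and 121 CPM (1765 to 20238 CPM in wells that were no lymphocytes). No gene of these 3 lists was at 0 UMIs in alpha beta lymphocytes. The myeloid and mast cell list was at 1490.0, 686 and 220 CPM against 1347, 382 and 258 CPM, with 2076, 2171 and 1734 CPM in wells that were no lymphocytes, so that it was not much lower in mouse 2, and with 4 of its 13 genes at 0 UMIs, among them Mcpt2 of mast cells.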

How the data were processed

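The measurement was single-cell MARS-seq of the jejunum. The authors deposited whole-number UMI counts per gene and well, without normalization: 23379 genes in 16850 wells of 44 plates. Per the submitters' processing notes, reads were converted with bcl2fastq 2.15.0.4 and GRCm38 was the build. Per the study's methods, reads were aligned with STAR and counted with zUMIs, with library strand used. The table precedes the background subtraction that the methods describe, and none was done here.

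The study's limits on wells were applied (total UMIs of 200 to 7000, genes detected 150 to 1500, mitochondrial share up to 40%); 40 wells met the UMI rule for alpha beta lymphocytes outside them. No doublet caller was run. Members and gene lists were chosen with earlier results of these data known, and the wells were chosen by UMIs of the same libraries. Levels are CPM of UMI sums over wells of a mouse. A mouse entered with at least 5 wells, so mice 2, 3 and 4 did, with sums of 65921 to 333426 UMIs. A rare gene's precision is limited by its UMI count.

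Sums were tested with edgeR 4.0.16 in R 4.3.3 (quasi-likelihood test, TMM, filterByExpr, Benjamini-Hochberg adjustment over all genes tested, two-sided, threshold 0.05), without the 11 rule genes. The SE was the absolute log2 change divided by the square root of F. The code was tested on simulated data. DESeq2 1.42.0 (adjusted p NA kept as NA), other filters and normalizations, the mouse as a block, mice left out and other well rules were alternatives. Both sums of a mouse come from plates of the same mouse number, and their deviations from the group means correlated at 0.405, 0.198 and 0.203 in mice 2, 3 and 4 over 2312 genes. Plates of mouse 2 were labelled 3 and 4 months, so its number may not name a single animal. Both of its sums came from CD24 plates labelled 3 months. The study states no test between lymphocyte subsets.

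Named genes were the rule genes, fixed markers of cell types and the 15 of highest ratio to wells that were no lymphocytes. From each list, genes called or up to 3 of highest level were named. Others are said to be chosen after their values were seen. Shares of wells have exact binomial intervals, shares of 0 a limit of 3 wells of the total, and ratios of UMI sums exact conditional ones. Thinned shares used 400 UMIs per well and left out shallower wells (374 alpha beta and 467 gamma delta lymphocytes stayed). Gene positions are from the GENCODE annotation of GRCm38, and promoter windows from RefSeq.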

Additional observations from a re-analysis of the deposited data

How the results depend on the processing

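The count of genes called between alpha beta and gamma delta lymphocytes was 0 with edgeR, DESeq2 or its size factors, without mouse 2, 3 or 4 (0 to 0), with a lymphocyte sum of at least 5, with gamma delta wells free of Cd8b1 and Trac, in thinned wells, without the plates labelled 4 months (which held no such lymphocytes) and in wells with at most 5% epithelial UMIs. It was 19 without the filter on low counts (18 higher, among them the T cell genes Cd4, Cd5, Cd6, Thy1 and Il7r, but also Siglech, Ly6d, Mpeg1, Mzb1, Igha, Gip and histone genes, and 1 lower, Tcrg-C3), 1 at a threshold of 0.25, 2 with Cd8b1 alone (77 wells in place of 391) and 14 with the replicate block. Mouse 1 enters no sum, so leaving it out changes nothing.

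The following were added after seeing the data. Alpha beta wells without Tcrg-C1 against gamma delta wells without Cd8b1 or Trac gave 3 calls, all lower (Fgl2, Tcrg-C2 and Tcrg-C3). Tcrg-C1 was required to be absent from the alpha beta wells only, and reads of the Tcrg-C genes can be hard to tell apart. No conclusion is therefore drawn from the Tcrg-C calls of that fit. With the replicate block, the count was 10 without wells of Gip, Chga, Chgb or Igha, 14 without histone wells, 9 with gamma delta wells free of Cd8b1 and Trac, 18 without Siglech wells, 15 with DESeq2's size factors, 0 in DESeq2, 14 with Cd8b1 alone and 7 with Cd8b1 alone without Siglech wells (3 without the block). With the block and a mouse left out it was 4 to 24. The cause of these moves was not tested. Tyrobp, named after its values were seen and not counted below, was lower in 27 of 29 alternatives and higher in 2, up to 0.21 on the log2 scale.

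Over 34 genes named by rule or called with the block, 764 of 912 comparisons with an alternative kept direction and side of the threshold, 122 passed where the first fit had not, and 26 changed direction. Without a mouse, Gm43291 ran from −0.19 (without mouse 3) to 1.14 on the log2 scale. It was −0.13 without mouse 3 with the block, −0.69 with Cd8b1 alone (−0.79 with the block) and −0.69 there without Siglech wells (−0.98 with the block, where Gm42418 was at −0.022). Without a mouse, Xcl1 ran from −1.02 (without mouse 3) to 1.49 and Srgn was at 0.093 without mouse 3 (−0.99 and 0.11 with the block). In thinned wells Hcst was at 0.10, Id2 at 0.21, Ets1 at 0.019 and Ikzf2 at 0.16. Id2 ran from −0.23 without mouse 3 to 0.15 without mouse 2 (0.16 with the block), and was at 0.021 without mouse 4, 0.016 with a sum of at least 5 and 0.020 without Siglech wells. Ets1 was at 0.19 without mouse 3 (0.17 with the block), 0.024 with a sum of at least 5, 0.0007 without wells of Gip, Chga, Chgb or Igha, and 0.037 without Siglech wells (0.036 with the block).

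Depth limits genes of few UMIs: a well held a median of 1048 UMIs, so a gene not seen in a well was not shown to be absent there. Mouse 4 gave 60 wells, and 11 with Cd8b1. Only 3 mice carry each comparison.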

Other observations

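Unassigned lymphocytes, with no UMI of Trdc, Trac or Cd8b1, entered no comparison. They were shallower, with a median of 770 UMIs per well, and Gzma was found in 90.6% of them, Ccl5 in 94.8% and Cd8a in 43.8%, compared with 91.6%, 97.7% and 67.5% of alpha beta lymphocytes. Fcer1g was found in 30.8% and Trbc2 in 36.9%.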
